A study of Mus musculus with 28 samples.

Results

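Wide distal regions, those of 800 bp or more that lay outside every deposited window around a transcription start site (TSS), were described across 6 groups of mouse embryonic stem cells. They were chosen by width and position alone, without reference to coverage, from the 127646 regions of the H3K27ac and H2BK120ac tables. A region was taken when its end minus its start reached 800 bp and it overlapped none of the 38087 TSS windows, each 5 kb wide. This gave 3617 regions, which is 2.83% of all regions and 3.56% of the 101688 distal ones. The 98071 narrower distal regions served as the comparison.

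The cells carried FOXD3-iKO, an inducible knockout of the forkhead transcription factor FOXD3, grew in L2i medium and, per the labels, were treated for 24 h. For H3K27ac, asynchronous cells treated with 4-hydroxytamoxifen (4HT), which induces the loss of FOXD3, were set against cells given ethanol (EtOH), with 2 samples in each group. For H2BK120ac the 4 groups are coded TD, ED, TT and ET, with 3 samples each, and the sources used here do not explain these codes, so TD was set against ED and TT against ET. All of these groups share the genotype, the medium and the treatment time. The sources used here do not say how the knockout allele was built or whether the line is a single clone, and loss of FOXD3 could not be checked from chromatin marks. The remaining 12 samples came from sorted cell cycle phases and are left aside. Each group was deposited as 1 merged column, so no spread between replicates exists and no test was possible. Differences are given by size, with counting intervals that take the mean pile-up of a region as its fragment count. These intervals cover no other error.

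Enhancers are stretches of regulatory DNA, often far from the gene they act on, whose flanking nucleosomes carry acetylated histones while they are in use. H3K27ac, placed on histone H3 by the p300 and CBP acetyltransferases, is the mark most used to find active enhancers and promoters. H2BK120ac sits on a lysine of histone H2B that can instead carry ubiquitin, and it too accompanies active regulatory elements. In embryonic stem cells, broad acetylated elements lie near genes of the pluripotency network such as Nanog and Klf4. Both were mapped by CUT&Tag, where a transposase held by the antibody cuts and tags the DNA beside the mark.

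The values are mean coverage of a region over its covered bases, in CPM (fragments scaled to the depth of the library), and a region without coverage was counted as 0. In each column the value that occurred most often was taken to be that of 1 fragment. On this reading the depth was 4.82 M fragments in 4HT and 6.08 M in EtOH, and 2.25 to 2.43 M in the H2BK120ac groups, where some values were as low as 0.25 of that unit. Regions with a mean of 5 fragments or more over the columns of a mark, 0.93 CPM for H3K27ac and 2.15 CPM for H2BK120ac, are called well covered. Folds were taken on the log2(value + pseudocount) scale, with a pseudocount of 0.2 for H3K27ac and 0.4 for H2BK120ac. This shrinks the folds of low regions, but 1 fragment against none can still reach 2-fold. A region near Dusp6 with 0 CPM in TD and 0.445 CPM in ED has a log2 fold of -1.08. Counts taken without a coverage minimum on the mark include such regions. The highest H3K27ac value within 50 kb of 8 stem cell marker genes had a median of 8.56 CPM in 4HT and 5.73 CPM in EtOH. These values ranged from 0.695 CPM (Klf4) to 16.7 CPM (Pou5f1) in 4HT and from 0.535 CPM to 14.9 CPM in EtOH, for the same genes. The medians for the markers of feeder fibroblasts, primitive endoderm and trophectoderm lay between 0.359 and 0.595 CPM in 4HT and between 0.325 and 0.418 CPM in EtOH. Col3a1, a fibroblast collagen, was the highest of those 18 markers, with 1.98 CPM in 4HT and 1.91 CPM in EtOH. Klf4 was below Col3a1 in both groups, and Esrrb, at 1.57 CPM, was below it in EtOH, so the marker sets overlapped.

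Although they lay outside the deposited windows, 430 of the wide distal regions (11.9%) held at least 1 TSS of the RefSeq annotation. Together they held 519 such promoters, of 318 protein-coding genes and 129 lncRNA genes. The promoters, each 250 bases before to 50 bases after the TSS, are RefSeq sequence of build GRCm38.p6, the same assembly as mm10. No sequence of the other wide distal regions was used here. The 5 promoters below show the range of base composition among them, with the CG dinucleotides in capitals, and each is written 5′ to 3′ on the strand of its gene.

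1700019D03Rik, chr1:52953565-52953864, minus strand, has the highest H3K27ac of the promoter-holding regions with a protein-coding gene and 3 CG dinucleotides:
1700019D03Rik: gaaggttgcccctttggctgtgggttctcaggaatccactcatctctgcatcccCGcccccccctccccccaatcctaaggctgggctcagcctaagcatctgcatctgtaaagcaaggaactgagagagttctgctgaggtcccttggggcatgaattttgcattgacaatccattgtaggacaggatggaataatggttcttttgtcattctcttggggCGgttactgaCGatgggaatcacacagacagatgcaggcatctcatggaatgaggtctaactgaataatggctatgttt
Mllt10, chr2:18064335-18064634, plus strand, encodes a chromatin factor that partners the DOT1L methyltransferase, and its promoter has 43 of them:
Mllt10: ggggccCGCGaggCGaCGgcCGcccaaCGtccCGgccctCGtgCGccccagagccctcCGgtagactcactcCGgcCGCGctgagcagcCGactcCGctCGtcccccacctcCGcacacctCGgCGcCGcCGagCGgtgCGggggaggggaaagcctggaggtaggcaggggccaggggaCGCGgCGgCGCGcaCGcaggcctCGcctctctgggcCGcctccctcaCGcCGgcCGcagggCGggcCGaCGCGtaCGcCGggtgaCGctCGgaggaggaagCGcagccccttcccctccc
Kansl1, chr11:104442271-104442570, minus strand, encodes a scaffold of the NSL histone acetyltransferase complex, and its promoter has 40:
Kansl1: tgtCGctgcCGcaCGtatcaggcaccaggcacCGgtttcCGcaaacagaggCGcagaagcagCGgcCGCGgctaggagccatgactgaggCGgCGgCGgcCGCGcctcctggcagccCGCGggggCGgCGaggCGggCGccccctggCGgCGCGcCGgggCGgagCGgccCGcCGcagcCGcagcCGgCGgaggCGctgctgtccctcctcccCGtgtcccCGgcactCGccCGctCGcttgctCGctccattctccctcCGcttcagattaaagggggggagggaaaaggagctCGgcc
Pid1, chr1:84284596-84284895, minus strand, encodes a phosphotyrosine-interaction-domain protein, and its promoter has 20:
Pid1: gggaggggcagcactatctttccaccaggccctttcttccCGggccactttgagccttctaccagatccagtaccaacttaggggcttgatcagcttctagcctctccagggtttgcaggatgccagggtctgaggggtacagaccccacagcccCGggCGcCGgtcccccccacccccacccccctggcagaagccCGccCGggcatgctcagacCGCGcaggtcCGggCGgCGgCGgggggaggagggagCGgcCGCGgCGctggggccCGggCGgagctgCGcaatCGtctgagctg
Dab1, chr4:104367288-104367587, plus strand, encodes an adaptor of reelin signalling, lies in one of the widest regions, and has 46:
Dab1: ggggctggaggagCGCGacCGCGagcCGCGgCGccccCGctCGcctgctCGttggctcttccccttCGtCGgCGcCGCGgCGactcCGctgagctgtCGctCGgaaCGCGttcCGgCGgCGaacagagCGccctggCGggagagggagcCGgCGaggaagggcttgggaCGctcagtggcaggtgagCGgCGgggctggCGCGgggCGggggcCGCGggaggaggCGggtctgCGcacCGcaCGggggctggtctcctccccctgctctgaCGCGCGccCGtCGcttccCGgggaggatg

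The protein-coding promoters in wide distal regions were rich in CG dinucleotides, with a median of 22 in 300 bases, against 13 in the 20888 protein-coding promoters of the table outside them. Of those in wide distal regions, 71.9% had 15 or more, against 46.4% of the others. The lncRNA promoters in wide distal regions had a median of 10. The 1700019D03Rik region had 8.88 CPM of H3K27ac in 4HT and 6.21 CPM in EtOH, while the Dab1 region had 0.4995 CPM in 4HT and 0.520 CPM in EtOH.

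A set of 8 sequence motifs was searched on both strands of the 519 promoters and of the 32332 other promoters of the table. The AP-1 letters TGANTCA, which read the same on both strands, occurred in 4.82% of the promoters in wide distal regions and in 7.86% of the others. The octamer ATGCAAAT occurred in 2.50% and 1.72%, the SOX-OCT letters TTGTNATGC in 0.578% and 0.733%, the ESRRB letters TCAAGGTCA in none and 0.430%, and the KLF letters GGGTGTGG in 3.85% and 3.56%. The forkhead letters TGTTTAC occurred in 3.66% and 3.65%, the CTCF letters CAGGGGGCG in 2.70% and 1.65%, and a pair of p53 half-site cores in 0.578% and 0.714%. The SOX-OCT and octamer letters can overlap in 1 place. Of the 5 printed promoters, Kansl1 held a CTCF match and the others held none of the 8. A match is a description of these letters only.

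A mature microRNA lay inside 2 wide distal regions. Mir8120, chr3:65659328-65659349, plus strand, lay in a region with 3.89 CPM of H3K27ac in 4HT and 3.18 CPM in EtOH, 6393 bp from the TSS of Lekr1. Its mature sequence, shown because it was the microRNA in the more acetylated of the 2 regions, follows with its seed in capitals.
mmu-miR-8120: uGUGCCUUgcaacuuccgagcc
The other was Mir8109, in the promoter region of Neto2, where H3K27ac was 0.207 CPM in 4HT and 0.273 CPM in EtOH.

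Wide distal regions had a median width of 939 bp and reached 3246 bp, against a median of 227 bp for the narrower distal regions. Width fell off steeply: 1397 regions were 800 to 899 bp wide, 911 were 900 to 999 bp, 876 were 1000 to 1199 bp, 361 were 1200 to 1499 bp and 72 were 1500 bp or more. The regions just inside and just outside the threshold were of mixed level. A region of 800 bp near Cdk5r2, chr1:74824626-74825425, had 1.76 CPM of H3K27ac in 4HT and 1.35 CPM in EtOH. A region of 799 bp near Ndufa10, chr1:92431778-92432576, had 3.53 CPM in 4HT and 4.08 CPM in EtOH. Other regions of 800 bp (in Phlpp1) and of 799 bp (in Ralgps2) held at most 0.304 CPM and 0.405 CPM of H3K27ac in any group.

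The position of wide distal regions was close to that of narrower distal ones. Their median distance to the nearest TSS window centre was 28187 bp, against 27822 bp, and 52.4% lay inside a gene span, against 49.3%. Of the wide distal regions, 525 (14.5%) were 100 kb or more from any centre, against 16.0% of the narrower ones. All wide distal regions together made up 2.97% of the distal regions on chromosome 19 and 4.31% on chromosome 13. These were the ends of the range over the chromosomes other than Y, which had none. A neighbour within 12.5 kb was found for 238 of them (6.58%), in 115 clusters of which 8 held 3 regions and none held more. Together they were nearest to 2701 protein-coding genes, and no gene had more than the 9 regions of Rapgef5, a RAP guanine nucleotide exchange factor, and of Tgif1.

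Wide distal regions carried more of both marks than narrower distal regions in all 6 groups, and so did wide regions that overlap a TSS window. The latter had medians of 0.539 CPM in 4HT and 0.460 CPM in EtOH. For H2BK120ac they had 0.545 CPM in TD and 0.486 CPM in ED, and 0.561 CPM in TT and 0.471 CPM in ET. The median H3K27ac of wide distal regions was 0.488 CPM in 4HT and 0.466 CPM in EtOH. In the narrower regions it was 0.207 CPM and 0.165 CPM, that of 1 fragment. For H2BK120ac the median of wide distal regions was 0.427 CPM in TD and 0.6501 CPM in ED, and 0.423 CPM in TT and 0.646 CPM in ET. The narrower regions had medians of 0 CPM in TD and 0.371 CPM in ED, and of 0 CPM in TT and 0.410 CPM in ET. A wider region has more bases on which a fragment can fall, and in all groups fewer of the wide regions were without coverage. The share without coverage was 5.56% of wide distal regions in 4HT and 1.82% in EtOH, against 35.8% and 26.5% of the narrower ones. For H2BK120ac it was 18.4% in TD and 8.74% in ED, and 18.1% in TT and 10.7% in ET, against 41.8% to 53.6% of the narrower ones.

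**Figure D1:**
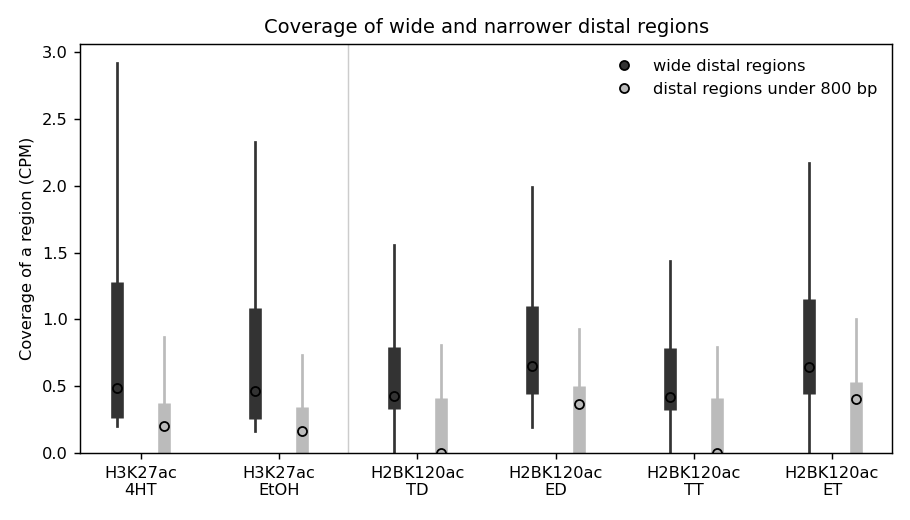
Coverage of wide distal regions (dark) and narrower distal regions (light) in CPM for each of the 6 merged columns, with the median as a point, the middle 50% of regions as a thick bar and the 10th to 90th percentile as a thin line. Medians of the wide regions lie between 0.423 CPM (TT) and 0.6501 CPM (ED), above those of the narrower regions in every column.

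Most wide distal regions were weakly acetylated. H3K27ac was well covered in 1112 of them (30.7%), against 8.27% of the narrower distal regions, and H2BK120ac in 238 (6.58%), against 2.0%. Of the wide regions that overlap a TSS window, 27.2% were well covered in H3K27ac and 2.69% in H2BK120ac. Both marks were well covered in 218 regions, which is 91.6% of those with H2BK120ac and 19.6% of those with H3K27ac. Only H2BK120ac was well covered in 20 regions, neither mark in 2485, and 6 regions had no coverage in any column. The widest region of all, chr17:39843101-39846346, was one of those 6, and it ended 8 bp before Rn18s-rs5, a ribosomal RNA pseudogene. The other 9 of the 10 widest had between 0.207 CPM and 1.66 CPM of H3K27ac in 4HT, and they included regions in Kcnn2, Dab1, Asic2, Klf12 and Sox17. None of the 10 widest differed 2-fold or more in H3K27ac, but several, such as those in Dab1, Asic2 and Sox17, were below the H3K27ac minimum. Of all well-covered wide distal regions, 2.16% were at least 2-fold higher and 0.180% lower. The absence of such differences among the widest is therefore not read as stability.

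The strongest H3K27ac of all wide distal regions lay inside Gpr107, which encodes a membrane protein of the Golgi, at chr2:31163476-31164364. It had 19.3 CPM of H3K27ac in 4HT and 14.9 CPM in EtOH, a ratio of 1.29 (95% interval 0.954 to 1.74). Its H2BK120ac was 15.04 CPM in TD and 3.30 CPM in ED, a ratio of 4.56 (2.15 to 13.0), and 12.8 CPM in TT and 5.78 CPM in ET, a ratio of 2.22 (1.13 to 4.62). This region was also among the 10 with the most H2BK120ac. The next 2 by H3K27ac went the other way in H2BK120ac. A region 51652 bp from Plekhg6, chr6:125433267-125434198, had 17.2 CPM of H3K27ac in 4HT and 13.1 CPM in EtOH. There H2BK120ac was 0.663 CPM in TD and 3.83 CPM in ED, and 1.29 CPM in TT and 4.09 CPM in ET. A region in Pcsk6, a proprotein convertase gene, chr7:65873264-65874112, had 17.3 CPM of H3K27ac in 4HT and 12.6 CPM in EtOH, but 1.60 CPM of H2BK120ac in TD and 5.27 CPM in ED, and 1.21 CPM in TT and 5.26 CPM in ET.

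The 10 regions of highest H3K27ac were mostly not those of highest H2BK120ac, and Gpr107 alone was on both lists. Ninth came the region 4253 bp from the TSS of Nanog, a homeodomain factor of the pluripotent state, chr6:122702292-122703236. It had 11.6 CPM of H3K27ac in 4HT and 9.01 CPM in EtOH. Its H2BK120ac was 6.28 CPM in TD and 2.66 CPM in ED, a ratio of 2.36 (0.848 to 7.27), and 5.28 CPM in TT and 4.47 CPM in ET. The others lay near Ooep, a gene of oocytes and early embryos, in Etl4, near Stoml1, in Pigl, near Nkain1 and in Mapt, with 11.3 to 15.3 CPM of H3K27ac in 4HT and 8.98 to 10.02 CPM in EtOH. All 10 were higher in 4HT than in EtOH, by less than 2-fold, and 76.4% of all well-covered regions had a positive log2 fold. In H2BK120ac, 4 of the 10 were at least 2-fold higher in TD than in ED and 2 were at least 2-fold lower. In TT against ET, 3 were higher and 2 lower. Over all regions well covered in H2BK120ac, 55.1% were higher and 18.5% lower in TD than in ED. In TT against ET these shares were 49.6% and 21.6%, so no direction is read from the 10 regions.

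**Figure D2:**
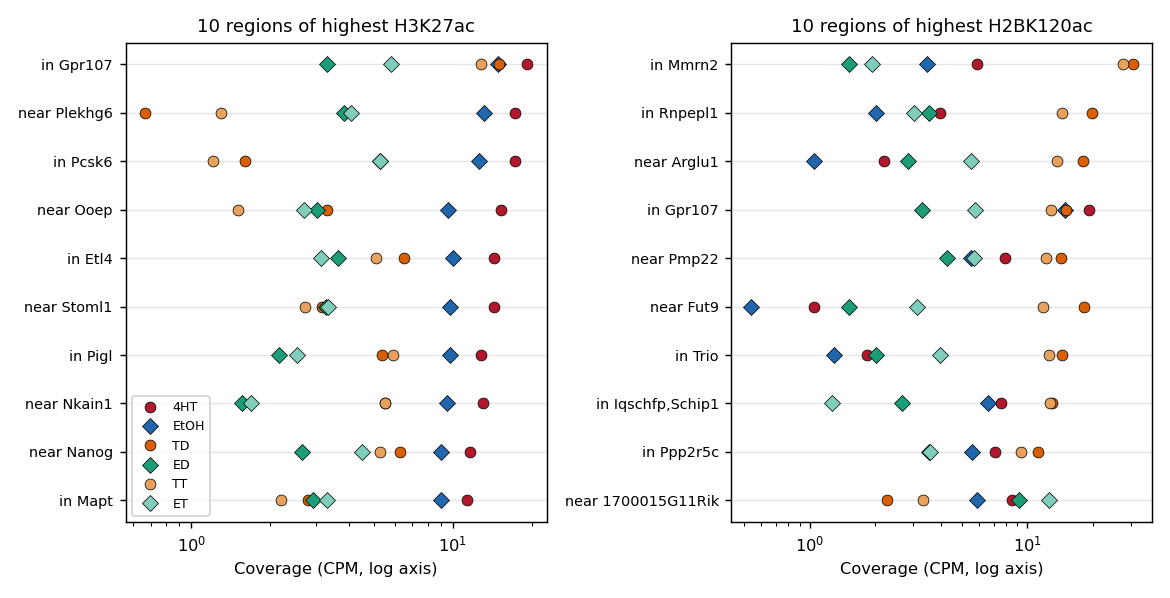
Coverage in CPM (log axis) of the 10 wide distal regions with the highest mean H3K27ac (left) and the 10 with the highest mean H2BK120ac (right), with a point for each merged column. The Mmrn2 region stands at 30.7 CPM in TD and 27.6 CPM in TT, against 1.52 CPM in ED and 1.94 CPM in ET.

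The strongest H2BK120ac of all wide distal regions lay inside Mmrn2, which encodes an extracellular matrix glycoprotein of blood vessels, at chr14:34378321-34379377. It reached 30.7 CPM in TD and 1.52 CPM in ED, a ratio of 20.2 (7.61 to 115). In TT it had 27.6 CPM and in ET 1.94 CPM, a ratio of 14.3 (5.82 to 58.9). H3K27ac in the same region was moderate, with 5.90 CPM in 4HT and 3.48 CPM in EtOH. A region in Rnpepl1, an aminopeptidase-like gene, chr1:92919185-92920153, had 19.8 CPM in TD and 3.53 CPM in ED, and 14.4 CPM in TT and 3.03 CPM in ET. Near Arglu1, a gene of transcription and splicing, chr8:8700151-8701454 had 18.03 CPM in TD and 2.83 CPM in ED, and 13.7 CPM in TT and 5.54 CPM in ET. Of the 10 strongest, 9 were at least 2-fold higher both in TD than in ED and in TT than in ET. Over all regions well covered in H2BK120ac this share was 46.4%. The ranking is by the mean of these same 4 columns, so a region high in TD and TT can reach the list through them, and the count is a description only. The exception lay 153890 bp from 1700015G11Rik, chr7:52169606-52170504, with 2.27 CPM in TD and 9.17 CPM in ED, and 3.31 CPM in TT and 12.6 CPM in ET. There H3K27ac was 8.48 CPM in 4HT and 5.90 CPM in EtOH.

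H3K27ac differed by 2-fold or more between 4HT and EtOH at few wide distal regions. Among the 1112 well-covered ones, 4HT was 2-fold or more above EtOH in 24 (2.16%), against 7.68% of all 13807 well-covered regions. It was 2-fold or more below EtOH in 2 (0.180%), against 0.739%. Both shares were below the background. Small differences in the same direction were common, since 862 regions (77.5%) had a positive log2 fold, close to the 76.4% of all well-covered regions, and the median was 0.29, against 0.33 over all well-covered regions. Both the counts and the sign of this median depend on the processing. Quantile normalization of the columns gave 5 higher and 7 lower, and without the coverage minimum 91 were higher and 110 lower. All regions covered in both columns already had a median log2 value 0.10 higher in 4HT, which left 0.19 after median centring, and quantile normalization gave -0.051.

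A low share of 2-fold differences was also found in wide regions that overlap a TSS window, where 2.59% of 1852 were higher and 0.0540% lower. At equal coverage the wide distal regions still held fewer than the narrower distal ones. Between 5 and 10 fragments of mean pile-up, 2.74% of 548 wide distal regions were at least 2-fold higher in 4HT, against 10.2% of 4600 narrower distal regions. At 20 fragments or more it was 0.913% of 219, against 4.66% of 1117. The mean of a wider region rests on more fragments at the same coverage, and the part this plays was not tested. The counting interval of the ratio, taken on mean pile-up, lay above 1 in 6 of the 24 higher regions and below 1 in neither of the 2 lower ones. The 24 higher regions had median H3K27ac of 2.49 CPM in 4HT and 1.02 CPM in EtOH, 9 of them lay inside a gene, and 1 held an annotated promoter, that of Urgcp.

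The largest H3K27ac log2 fold among wide distal regions, 1.56, was inside Mipep, a gene of a mitochondrial peptidase, chr14:60895291-60896177. It had 1.65 CPM in 4HT and 0.425 CPM in EtOH, a ratio of 3.88 (0.806 to 19.7). The next, far from any gene and nearest to Bmper, which encodes a BMP-binding protein, chr9:23577028-23577899, had 3.73 CPM in 4HT and 1.21 CPM in EtOH, a ratio of 3.08 (1.29 to 9.18). Better covered were a region near Hnrnpu, a nuclear RNA-binding protein gene, chr1:178359987-178361156, with 5.49 CPM in 4HT and 2.09 CPM in EtOH, and a region near Wtap, a gene of the RNA methylation machinery, chr17:12999088-12999935. That one had 5.43 CPM in 4HT and 2.10 CPM in EtOH. Both ratios had a counting interval of 1.25 to 5.34. Others of the 10 lay in Fyb, Smyd3, Mbp and Urgcp, with 1.40 to 3.08 CPM in 4HT and 0.488 to 1.15 CPM in EtOH. The 2 lower regions were nearest to Vrk1, a nuclear kinase gene, with 0.512 CPM in 4HT and 1.52 CPM in EtOH, and to Adgrd1, an adhesion receptor gene, with 0.858 CPM in 4HT and 2.09 CPM in EtOH.

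Tfap2c, which encodes the transcription factor AP-2 gamma of trophectoderm, germ cells and naive stem cells, supplied 2 of the 10 largest increases. Of its 4 wide distal regions, 3 were well covered. The region chr2:172516206-172517125 had 2.67 CPM in 4HT and 0.870 CPM in EtOH, a ratio of 3.07 (1.10 to 11.7). The region chr2:172567879-172568811 had 2.68 CPM in 4HT and 1.01 CPM in EtOH, a ratio of 2.66 (0.968 to 8.76). The third, chr2:172576842-172577908, had 4.17 CPM in 4HT and 2.08 CPM in EtOH, just under the size rule at a log2 fold of 0.94. The fourth, chr2:172613253-172614425, was weak, with 0.548 CPM in 4HT and 0.410 CPM in EtOH. H2BK120ac was below 5 fragments on average in all 4.

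The other 5 regions around listed trophectoderm genes were not well covered, and the defining marker Cdx2, a trophectoderm factor, reached at most 0.382 CPM of H3K27ac in 4HT and 0.399 CPM in EtOH within 50 kb. Foxd3 itself was nearest to 2 wide distal regions. The one 13738 bp from its TSS, chr4:99641732-99642561, had 2.96 CPM of H3K27ac in 4HT and 1.63 CPM in EtOH, a ratio of 1.82 (0.729 to 4.44). Its H2BK120ac was 0.511 CPM in TD and 1.43 CPM in ED, and 1.14 CPM in TT and 0.981 CPM in ET. The other, 210235 bp away, was weak, with 0.207 CPM of H3K27ac in 4HT and 0.289 CPM in EtOH.

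**Figure D3:**
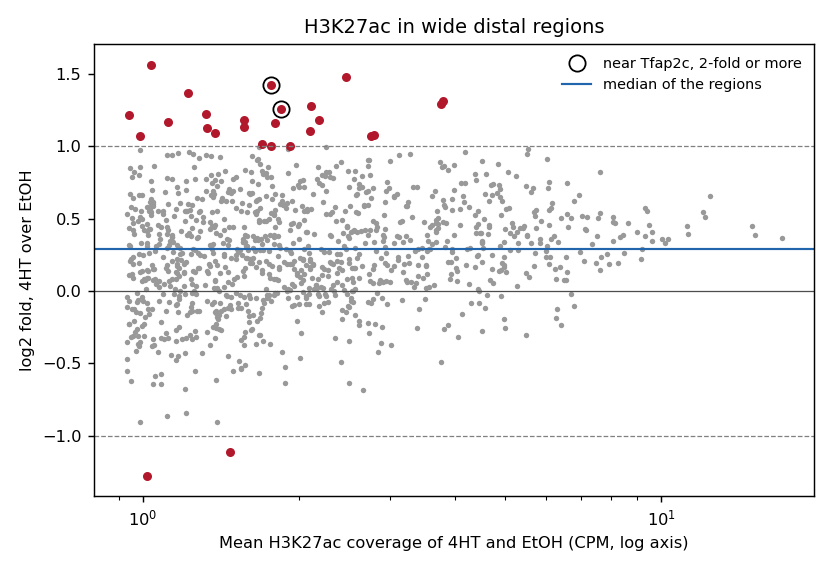
Log2 fold of H3K27ac, 4HT over EtOH, against mean coverage in CPM (log axis) for the 1112 well-covered wide distal regions, with those of 2-fold or more in red and the dashed lines at 2-fold. The median line stands at 0.29 as deposited (-0.051 after quantile normalization), and 24 regions lie above the upper dashed line against 2 below the lower one.

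Some wide distal regions carried more H2BK120ac in TD and TT, and others carried more in ED and ET. Among 238 well-covered regions, TD exceeded ED by 2-fold or more in 77 (32.4%), against a background of 55.1% of the 2782 well-covered regions of all kinds. In a further 76 (31.9%) it was lower by 2-fold or more, against 18.5%. In TT against ET, 63 (26.5%) were higher, against 49.6%, and 80 (33.6%) were lower, against 21.6%. The median log2 fold was 0.10 for TD over ED and -0.35 for TT over ET, against 1.28 and 0.96 over all well-covered regions. These signs depend on the processing. For TD over ED the median was -0.37 after quantile normalization, -0.32 with a minimum of 3 fragments and 1.195 with a minimum of 10, and for TT over ET it was 1.03 with a minimum of 10. The counting interval of the ratio, taken on mean pile-up, lay above 1 in 50 of the 77 and below 1 in 39 of the 76. Likewise it did so in 36 of the 63 and 52 of the 80.

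A region could pass the coverage minimum through the group where it was high, so the same counts were taken over the 1112 regions well covered in H3K27ac, a choice that uses no H2BK120ac value. This alternative was added after the data had been seen. There, 117 (10.5%) were at least 2-fold higher in TD than in ED, against 20.2% of the 13807 regions so chosen, and 319 (28.7%) were lower, against 21%. In TT against ET, 95 (8.54%) were higher, against 17.3%, and 370 (33.3%) were lower, against 24.1%. In both selections the share higher in TD and TT was below the background and the share lower was above it. The second selection sets no H2BK120ac minimum, and 894 of its 1112 regions were below that minimum. Its median H2BK120ac was 0.818 CPM in TD and 1.31 CPM in ED, and 0.790 CPM in TT and 1.44 CPM in ET. Many of its counts can therefore rest on few fragments. The split within the wide distal regions themselves was even in the first selection for TD against ED and tilted to lower regions in the second.

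TD against ED and TT against ET share no column. Of the 238 regions, 57 (24.0%) were at least 2-fold higher in both, against 46.4% of all well-covered regions. A further 68 (28.6%) were at least 2-fold lower in both, against 15.6%, and none was higher in one and lower in the other. Of the well-covered narrower distal regions, 41.4% were higher in both and 17.9% lower in both. Across the 238 regions the log2 folds of the 2 comparisons had a Spearman correlation of 0.92, over points that share the coverage filter. It was 0.72 over the 1112 regions chosen on H3K27ac and 0.49 over all 3617 wide distal regions. By contrast, the groups that share a first letter differed at few regions. In ET against ED, 7 were at least 2-fold higher (background 10.4%) and 2 lower (3.85%), and in TT against TD, 2 were higher (2.48%) and 7 lower (5.75%).

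**Figure D4:**
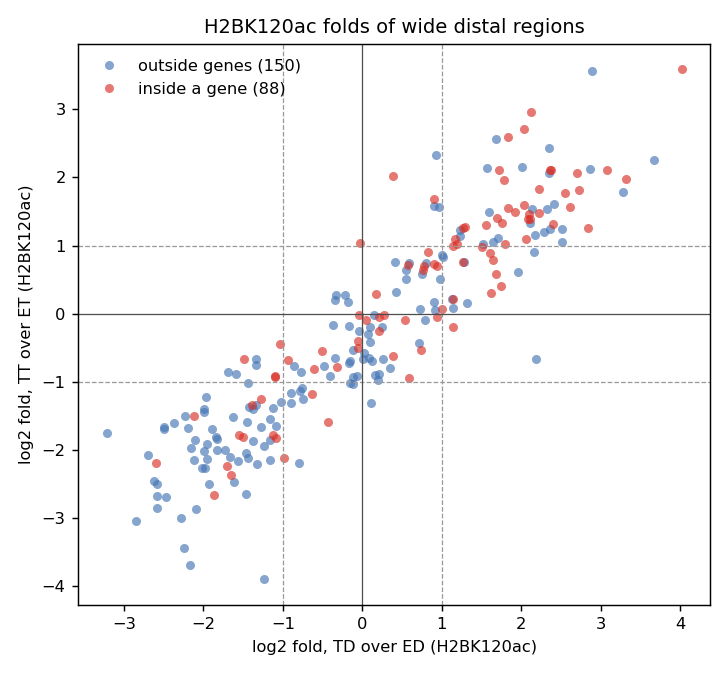
Log2 fold of H2BK120ac, TT over ET against TD over ED, for the 238 well-covered wide distal regions, with red points inside a gene (88) and blue points outside genes (150) and dashed lines at 2-fold. The upper right corner holds the 57 regions higher in both and the lower left corner the 68 lower in both, of which 11 lie inside a gene.

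The 2 sets differed in place. Of the 57 regions higher in both, 33 (57.9%) lay inside a gene and the median distance to a TSS window centre was 17596 bp. Of the 68 lower in both, 11 (16.2%) lay inside a gene and the median distance was 52545 bp. Over all 238 well-covered regions, 37.0% lay inside a gene and the median distance was 30596 bp. Over all wide distal regions these were 52.4% and 28187 bp, so the 57.9% was near the general share. Seen from the other side, 37.5% of the 88 regions inside genes were higher in both and 12.5% were lower, whereas 16.0% of the 150 regions outside genes were higher and 38.0% were lower. Under the same minimum, the narrower distal regions showed the same ordering at other levels. Inside genes 60.2% were higher and 8.13% lower, and outside genes 27.1% were higher and 25.4% lower. Of the wide regions within 10 kb of a window centre, 33.3% of 42 were higher in both and 11.9% lower, and between 50 and 200 kb, 16.9% of 65 were higher and 43.1% lower.

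H3K27ac was well covered in 45 of the 57 regions higher in both (78.9%) and in 67 of the 68 lower in both (98.5%). Regions higher in both had a median of 2.11 CPM in 4HT and 1.57 CPM in EtOH, and those lower in both had 3.88 CPM in 4HT and 3.17 CPM in EtOH. In the set higher in both, the median H2BK120ac was 6.16 CPM in TD and 1.17 CPM in ED, and 5.89 CPM in TT and 1.68 CPM in ET. In the set lower in both, it was 1.13 CPM in TD and 4.50 CPM in ED, and 0.921 CPM in TT and 5.01 CPM in ET. An annotated promoter lay in 4 of the 57 and in none of the 68.

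Among the regions higher in TD and TT, 3 of the largest differences in TD lay near Eif2ak3 and inside Trp73 and Camsap3. Near Eif2ak3, which encodes the PERK kinase of the unfolded protein response, chr6:70824117-70825208 had 10.3 CPM in TD and 0.445 CPM in ED, and 7.23 CPM in TT and 1.205 CPM in ET. Inside Trp73, a p53 family gene, chr4:154081541-154082468 had 7.53 CPM in TD and 0.794 CPM in ED, and 2.70 CPM in TT and 0.477 CPM in ET. Inside Camsap3, which encodes a microtubule minus-end protein, chr8:3597819-3598694 had 6.48 CPM in TD and 0.416 CPM in ED, and 6.12 CPM in TT and 1.11 CPM in ET. ED stood at about the value of 1 fragment in Eif2ak3 and Camsap3, so those ratios have wide counting intervals, 3.79 to 949 and 2.30 to 621. Of 18 genes listed as p53 targets, only Pmaip1, the cell death gene also called Noxa, had wide distal regions, and neither of its 2 was well covered in H2BK120ac.

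The regions lower in TD and TT lay mostly outside genes. The largest difference in TD was 597574 bp from Manea, chr4:26944226-26945225, with 0.580 CPM in TD and 8.68 CPM in ED, a ratio of 0.0668 (0.00112 to 0.289), and 1.55 CPM in TT and 6.18 CPM in ET. Near Etaa1, a gene of the replication stress response, chr11:17882878-17883790 had 0.412 CPM in TD and 5.43 CPM in ED, and 0.415 CPM in TT and 6.29 CPM in ET. TD and TT stood at the value of 1 fragment there. Others were nearest to Purg, Tmprss11d, Gap43, Sema3d, Lrrn1 and Cdh9, or inside Cntn5, and all of these had 0.879 CPM or less in TD and 3.78 CPM or more in ED. The largest difference in TT, chr1:101756433-101757502, 1479358 bp from the nearest protein-coding TSS, had 0.348 CPM in TT and 10.8 CPM in ET, and 2.03 CPM in TD and 5.36 CPM in ED. Its H3K27ac was 10.3 CPM in 4HT and 7.69 CPM in EtOH.

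In 20 regions only H2BK120ac was well covered. Of them, 12 were at least 2-fold higher in both comparisons and 1 was lower in both, near Eps8l3, against 46.4% and 15.6% of all well-covered regions. A region can reach the minimum through TD and TT alone, so nothing about direction is read from these counts. The strongest lay 15529 bp from Fut9, the fucosyltransferase gene behind the Lewis X antigen of stem cells, chr4:25815532-25816407. It had 18.2 CPM in TD and 1.52 CPM in ED, a ratio of 11.98 (4.35 to 68.3), and 11.8 CPM in TT and 3.12 CPM in ET. Its H3K27ac was 1.05 CPM in 4HT and 0.536 CPM in EtOH. A region near Jun, an AP-1 gene, chr4:95160989-95161916, had 3.04 CPM in TD and 0.7997 CPM in ED, and 4.10 CPM in TT and 1.80 CPM in ET, and it was the only region of 9 around the listed immediate early genes to be well covered in H2BK120ac. None of the 20 held an annotated promoter.

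**Figure D5:**
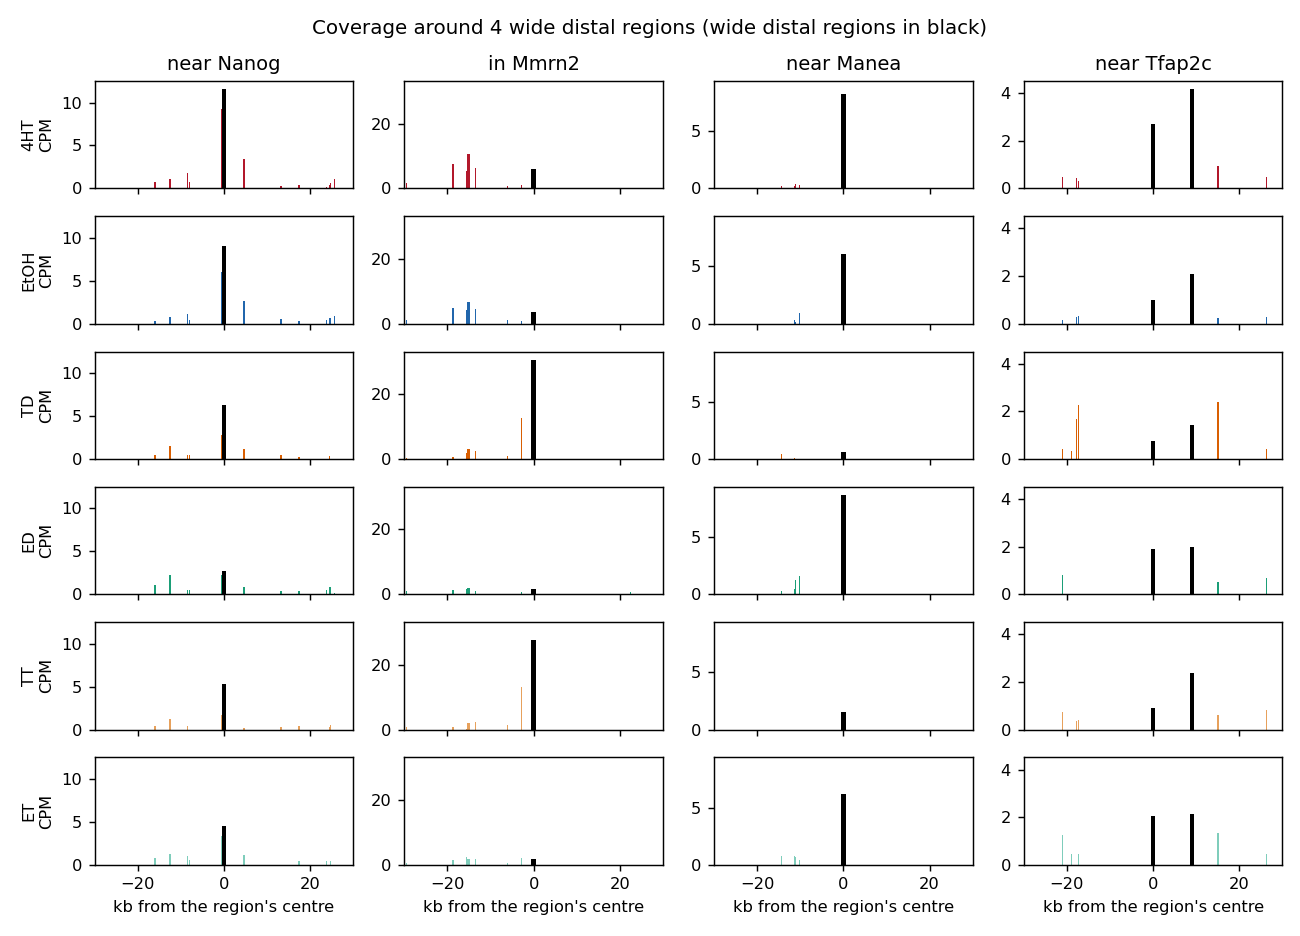
Coverage in CPM by distance from the centre of a wide distal region near Nanog, in Mmrn2, near Manea and near Tfap2c, with a row for each merged column, the wide distal regions in black and other regions in colour. The Mmrn2 region reaches 30.7 CPM in TD and 27.6 CPM in TT, the Manea region 8.68 CPM in ED and 6.18 CPM in ET, and the scale is the same down each column of plots.

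The neighbourhoods of these regions differed. Around the Manea region, 4 other regions lay within 30 kb and none exceeded 0.916 CPM of H3K27ac in any group or 1.62 CPM of H2BK120ac in ED. Around Mmrn2, other regions reached 10.7 CPM of H3K27ac in 4HT and 6.78 CPM in EtOH, above the wide region itself. There the highest H2BK120ac outside the wide region was 12.6 CPM in TD and 1.78 CPM in ED, and 13.2 CPM in TT and 2.41 CPM in ET. Around Nanog, none of the other 15 regions exceeded the wide one in H3K27ac, the highest having 9.22 CPM in 4HT and 6.06 CPM in EtOH.

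The 15 gene lists held 178 genes, of which 67 were nearest to at least 1 wide distal region, 117 regions in all. In the naive pluripotency list, 10 of 18 genes had 16 regions, of which 9 were well covered in H3K27ac, none passed the size rule in either direction, and the median log2 fold of those 9 was 0.45 in 4HT over EtOH. In the list of genes with large stem cell enhancers, 16 of 24 genes had 27 regions, of which 17 were well covered, 2 were at least 2-fold higher (both near Tfap2c) and none was lower. The medians of both lists were positive, as was that of all well-covered regions at 0.33, and both rest on the deposited scaling. General pluripotency genes had 6 regions, formative and primed genes 11, and FOX and SOX family genes 22, with 3, 5 and 3 of them well covered in H3K27ac and none past the size rule. Over all wide distal regions 30.7% were well covered, and of those 2.16% were at least 2-fold higher and 0.180% lower. The absence of such regions from lists this short is therefore not read as a result.

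Klf4, a Kruppel-like pluripotency factor, had the strongest of the naive list, 54241 bp from its TSS, chr4:55477297-55478234. It had 11.002 CPM of H3K27ac in 4HT and 7.98 CPM in EtOH, a ratio of 1.38 (0.907 to 2.05). Its H2BK120ac was 6.36 CPM in TD and 3.04 CPM in ED, and 4.47 CPM in TT and 3.03 CPM in ET. The Tet2 region, inside the gene of that DNA-demethylating enzyme, chr3:133524431-133525456, had 10.1 CPM of H3K27ac in 4HT and 7.22 CPM in EtOH. It differed from Klf4 in H2BK120ac, with 0.645 CPM in TD and 2.93 CPM in ED, and 0.832 CPM in TT and 2.19 CPM in ET. The mean of the Tet2 region was below the H2BK120ac minimum of 2.15 CPM.

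The region near Zfp42, the gene of the naive marker Rex1, had 8.29 CPM of H3K27ac in 4HT and 5.32 CPM in EtOH. Near Prdm14, a regulator of naive and germ cells, chr1:13084639-13085602 had 5.42 CPM in 4HT and 4.34 CPM in EtOH. H2BK120ac near Prdm14 was 0.747 CPM in TD and 3.10 CPM in ED, and 0.367 CPM in TT and 3.32 CPM in ET. The opposite held inside Esrrb, the gene of an orphan nuclear receptor, chr12:86470866-86471686, with 5.43 CPM in TD and 0.599 CPM in ED, and 2.80 CPM in TT and 0.535 CPM in ET. Near Pim3, a kinase gene downstream of LIF and STAT3, chr15:88867502-88868503 likewise had 6.47 CPM in TD and 0.897 CPM in ED, and 4.58 CPM in TT and 1.24 CPM in ET. The values of these pluripotency genes did not share 1 direction in H2BK120ac, but the lower ones, Prdm14 and Tet2, were below the H2BK120ac minimum. Their counting intervals for TD over ED, 0.0268 to 1.39 in both, included 1. Of the 3 naive regions well covered in H2BK120ac, none was at least 2-fold lower in either comparison. The counting intervals of Esrrb (1.81 to 511) and Pim3 (1.74 to 66.3) for TD over ED were wide. Lifr, the LIF receptor gene, had 3.01 CPM in TD and 2.22 CPM in ED, and 2.30 CPM in TT and 3.75 CPM in ET, in a region of its own gene with 4.25 CPM of H3K27ac in 4HT and 3.78 CPM in EtOH.

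Among genes of signalling pathways, the counts of well-covered wide distal regions are given beside the general share, 30.7% of all wide distal regions. Each list held few regions, so no difference between lists is read from these counts. Of all well-covered wide distal regions, 2.16% were at least 2-fold higher in H3K27ac and 0.180% lower. In the Nodal, BMP and TGF list, 6 of 9 regions were well covered in H3K27ac, and the one near Lefty2, a Nodal antagonist gene, chr1:180888280-180889544, had 5.41 CPM in 4HT and 4.56 CPM in EtOH. In the WNT list 3 of 12 regions were well covered, in the FGF and ERK feedback list 3 of 14, in the LIF and STAT3 list 3 of 6, and in the list of chromatin regulators 6 of 9, with none past the size rule in H3K27ac. Near Jarid2, a Polycomb cofactor gene, the region had 5.08 CPM in 4HT and 3.97 CPM in EtOH. Of the 7 regions around primitive endoderm genes 1 was well covered, of the 2 around fibroblast genes 1, and neither passed the size rule.

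Tgif1, which encodes a homeodomain corepressor of TGF-beta signalling, had as many wide distal regions as any gene. Of its 9 regions, 4 lay inside the neighbouring Dlgap1 and 5 outside genes, and 8 were well covered in H3K27ac. The strongest, chr17:70828161-70829473, had 8.21 CPM in 4HT and 6.51 CPM in EtOH. A cluster of 3 followed, chr17:70864741-70866070, chr17:70866122-70866934 and chr17:70872094-70872932, with 3.78, 4.62 and 3.51 CPM in 4HT and 2.34, 3.03 and 2.07 CPM in EtOH. Their log2 folds were 0.65, 0.58 and 0.71. In the 3 well-covered regions inside Dlgap1 the log2 folds were 0.02 to 0.07. Rapgef5, which had as many regions, had 2 that were well covered and at most 1.37 CPM of mean H3K27ac.

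The promoter-holding regions carried H3K27ac at about the level of the rest. Their median was 0.448 CPM in 4HT and 0.389 CPM in EtOH, against 0.493 CPM and 0.475 CPM in the 3187 wide distal regions without a promoter. H2BK120ac was well covered in 2.33% of them, against 7.15% of the others. The Mllt10 region, chr2:18063832-18065299, had 4.83 CPM of H3K27ac in 4HT and 4.19 CPM in EtOH, and 4.51 CPM of H2BK120ac in TD and 1.21 CPM in ED. The Kansl1 region had 4.32 CPM of H2BK120ac in TD and 0.717 CPM in ED, and 5.27 CPM in TT and 1.76 CPM in ET. The Pid1 region had 5.597 CPM in TD and 1.0005 CPM in ED, and 3.87 CPM in TT and 1.15 CPM in ET. The printed promoters of Mllt10, Kansl1 and Pid1 lay in regions higher in TD and TT. Kansl1 and Pid1 came from a ranking by mean H2BK120ac, so their level follows from that choice. The Dab1 promoter lay in a region at about the value of 1 fragment. That region had 0.412 CPM in TD and 0.636 CPM in ED, and 0.415 CPM in TT and 0.448 CPM in ET. The 1700019D03Rik promoter lay in a region with 2.15 CPM in TD and 2.79 CPM in ED, and 1.45 CPM in TT and 2.78 CPM in ET. These 5 were picked after their values were seen, and no relation across promoters was computed.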

How the data were processed

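The samples were profiled by CUT&Tag for H3K27ac (4 samples) and H2BK120ac (12 samples), and the 12 phase-sorted samples were left out. The authors deposited coverage signal in CPM, per the table names, and merged the replicates into 1 column per group, per the file headers. Per the submitters' processing notes, the build was mm10, and featureCounts and DESeq2 are named for H3K27ac with no step stated. The sources used here do not give the aligner, the coverage tool or how the regions were set. A region's mean skips uncovered bases, so sparse regions read too high. Another 16 value columns of 2 IgG tables match no sample and were not used, so background was not examined.

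From the files, folds, counts past 2-fold, medians and exact 95% intervals (Clopper-Pearson, on pile-up in fragments) were computed (Python 3.11.15, numpy 2.4.6, pandas 2.3.3, scipy 1.17.1, matplotlib 3.10.9). The intervals take mean pile-up as the fragment count, though a wide region can hold more fragments than that, so they only approximate counting error. They cover no other error, and CUT&Tag fragments are not counted as unique molecules here. Depth is known only as implied by the value of 1 fragment. Pile-ups simulated with known folds served to test the scripts. Each region carries the name of the protein-coding gene whose TSS is nearest. That TSS came from RefSeq promoters for 17492 genes and, for 3998 genes, from the end of the gene span within 5000 bp of a deposited window centre. Exons were not annotated, so a region is said only to lie inside or outside a gene span. The text names the 10 regions of highest mean H3K27ac and of highest mean H2BK120ac, the 10 widest, members of the 10 largest folds in each direction with coverage in both groups, the strongest region of listed genes, regions near Foxd3 and regions that hold an annotated promoter or microRNA. The Tfap2c and Tgif1 sets, the plotted loci and the printed promoters were singled out after their values were seen. The regions and the gene lists were chosen with earlier results of these data known.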

Additional observations from a re-analysis of the deposited data

How the results depend on the processing

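No paired analysis was possible because the replicates were merged into 1 column per group, and leaving out a replicate was not possible for the same reason. Every count and median below is of wide distal regions, given first for H3K27ac in 4HT against EtOH, then for H2BK120ac in TD against ED, then in TT against ET, and the cause of each move was not tested. Requiring 10 kb from a window centre, or leaving out regions without coverage in either group, kept every count within 1.5 times and every median within its 95% order-statistic interval.

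The filter on low values moved most results, medians as well as counts. With a minimum of 3 fragments, H3K27ac had 42 higher and 6 lower with a median log2 fold of 0.25, TD against ED had 140 higher and 216 lower with -0.32, and TT against ET had 113 higher and 244 lower with -0.67. With a minimum of 10 fragments, the values were 9 higher, 0 lower and 0.33, then 23 higher, 7 lower and 1.195, then 22 higher, 9 lower and 1.03, so that the TT median turned positive. With no filter, they were 91 higher, 110 lower and 0.14, then 359 higher, 879 lower and -0.25, then 364 higher and 914 lower. Without a minimum, 1 fragment against none can count as 2-fold. With the minimum of 5 fragments set on the other mark, an alternative chosen after seeing the data, they were 4 higher, 0 lower and 0.38, then 117 higher, 319 lower and -0.39, then 95 higher and 370 lower. A width of at least 1000 bp gave 9 higher and 0 lower, then 27 higher and 30 lower, then 21 higher and 31 lower.

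For H3K27ac, a pseudocount of 1 left 3 higher and 0 lower with a median of 0.21. Median centring gave 4 lower with a median of 0.19, and quantile normalization gave 5 higher and 7 lower with a median of -0.051, the reverse of the deposited sign. For TD against ED, quantile normalization gave a median of -0.37. The median log2 value of regions covered in both columns was 0.10 higher in 4HT than in EtOH and 0.11 lower in TT than in ET (as TT minus ET, -0.11), so median folds are best read against these shifts. Depth limits the H2BK120ac groups most, since 1 fragment is worth 0.412 to 0.445 CPM there and only 238 of the 3617 regions reached a mean of 5 fragments.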
